A study of Mus musculus with 18 samples.

Results

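The DNA methylation machinery was followed here in mouse embryonic stem cells (ESCs) and in the epiblast-like cells (EpiLCs) derived from them, with and without Δ9-tetrahydrocannabinol (Δ9-THC), the main psychoactive compound of cannabis. Of the 14411 genes in the deposited tables, the 9 genes that write, copy, oxidise or excise the mark were taken by name: Dnmt1 and its recruiter Uhrf1, the de novo group Dnmt3a, Dnmt3b and Dnmt3l, the dioxygenases Tet1, Tet2 and Tet3, and the glycosylase Tdg. All 9 were measured in both cell types. The cells carry the fluorescent reporters Blimp1::mVenus and Stella::ECFP; a female clone (H18) and a male one (R8) were in use, and the study states that its data are from female ESCs except where male cells are named. ESCs were kept in 2i+LIF medium, and EpiLCs were induced from them with activin A, bFGF and knockout serum replacement. Each cell type has 3 libraries with the ethanol vehicle and 3 with Δ9-THC at 100 nM, numbered as biological replicates 1 to 3. The study describes the exposure of both cell types as continuous, a scheme in which exposed EpiLCs derive from exposed ESCs. The study describes its repeats as independent. The p-values measure the spread between these deposited libraries, which were tied between the exposures, as described below.

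Methylation of cytosine at CpG dinucleotides is copied after DNA replication by Dnmt1, which Uhrf1 brings to hemimethylated sites. Dnmt3a and Dnmt3b place new methyl groups, and Dnmt3l, which has no catalytic activity of its own, stimulates both. The TET enzymes oxidise 5-methylcytosine, and Tdg removes the more oxidised forms so that base excision repair can restore an unmodified cytosine. Naive ESCs held in 2i+LIF have a hypomethylated genome, and the move towards the formative state of EpiLCs is known for the return of DNA methylation. The counts measure RNA per gene, and neither protein nor methylation was measured in these libraries.

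Each library held 23427551 to 32096698 counts, and a member held between 220 and 33768 counts in a library. The labels of the cell types held against their markers. The 8 naive pluripotency genes summed to 3711 to 3999 depth-scaled counts (CPM, with TMM factors over the 12 libraries) in ESCs and to 139 to 177 in EpiLCs. The formative and primed genes summed to 13.9 to 16.7 CPM in ESCs (4 of 7 measured) and to 304 to 352 in EpiLCs (all 7 measured). Within ESCs, edgeR called 2 of these 4 genes lower with Δ9-THC, both at a low level, where it called 6.91% of all genes. The other 2, Otx2 and Lef1, had higher means and were not called. Their log2(fold-change) was 0.22 for Otx2, without overlap, and 0.12 for Lef1 (edgeR adjusted p = 0.122 and 0.628). Pou3f1 fell from 3.85 ± 0.229 to 1.95 ± 0.188 CPM (SD, n = 3; log2(fold-change) -0.96, edgeR adjusted p = 0.0265) and Sox3 from 4.01 ± 0.249 to 3.01 ± 0.198 CPM (-0.40, edgeR adjusted p = 0.0498). Neither call was kept with the replicate block, with offsets for GC content and length (-0.73 and -0.12) or with any library left out. Of the 8 naive genes in ESCs, edgeR called 0, and 2 were higher and 6 lower with Δ9-THC (median log2(fold-change) -0.098). Fibroblast markers summed to at most 19.6 CPM in any library. The libraries with the same number in the 2 exposures were not independent of each other. Their deviations from the group means, taken over all shared genes, ran in opposite directions, with a Pearson correlation of -0.99 to -0.98 in each of the 6 pairs. The tests below, other than the replicate block, take all libraries as independent, so their SEs, intervals and p-values tend to understate the spread. The SE for Tet2 in EpiLCs was 0.086 without the block and 0.15 with it, and for Tdg in ESCs 0.032 and 0.074. Within a cell type, only Tet1 in ESCs (0.089 and 0.088) and Tdg in EpiLCs (0.23 and 0.21) had a lower SE with the block. The tables had been adjusted for batch with ComBat-seq before deposit.

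Promoter windows of RefSeq (GRCm38.p6, 250 bases before to 50 bases after an annotated start) show how unlike these genes are at their 5′ ends. The windows below are those of the genes whose RNA differed most between the cell types or whose exposures were most apart, each given 5′ to 3′ on the strand of the gene, with every CpG in capitals. RefSeq lists 3 windows each for Dnmt3a and Dnmt3l, and the one with most CpGs is shown. They lie at chr12:3806910-3807209 (plus strand) for Dnmt3a, at chr2:153649199-153649498 (plus strand) for Dnmt3b, at chr10:78042037-78042336 (plus strand) for Dnmt3l, at chr10:62887275-62887574 (minus strand) for Tet1 and at chr3:133544341-133544640 (minus strand) for Tet2.
Dnmt3a: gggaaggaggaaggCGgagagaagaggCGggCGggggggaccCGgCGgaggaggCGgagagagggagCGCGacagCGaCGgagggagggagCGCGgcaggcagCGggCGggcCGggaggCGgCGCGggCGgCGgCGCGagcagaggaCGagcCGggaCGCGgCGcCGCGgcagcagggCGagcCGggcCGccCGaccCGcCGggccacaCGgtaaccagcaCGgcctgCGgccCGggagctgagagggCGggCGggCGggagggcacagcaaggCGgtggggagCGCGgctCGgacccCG
Dnmt3b: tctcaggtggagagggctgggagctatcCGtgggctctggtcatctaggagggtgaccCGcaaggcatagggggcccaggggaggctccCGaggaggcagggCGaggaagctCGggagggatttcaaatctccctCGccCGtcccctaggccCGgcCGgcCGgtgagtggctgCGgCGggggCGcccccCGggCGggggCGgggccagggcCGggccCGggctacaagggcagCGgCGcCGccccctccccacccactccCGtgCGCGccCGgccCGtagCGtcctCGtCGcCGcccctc
Dnmt3l: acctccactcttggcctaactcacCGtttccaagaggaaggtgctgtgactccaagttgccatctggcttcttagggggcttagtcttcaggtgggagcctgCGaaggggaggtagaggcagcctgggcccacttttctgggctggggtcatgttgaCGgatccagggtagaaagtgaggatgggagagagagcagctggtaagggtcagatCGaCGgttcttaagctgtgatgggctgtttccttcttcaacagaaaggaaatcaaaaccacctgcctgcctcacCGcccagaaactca
Tet1: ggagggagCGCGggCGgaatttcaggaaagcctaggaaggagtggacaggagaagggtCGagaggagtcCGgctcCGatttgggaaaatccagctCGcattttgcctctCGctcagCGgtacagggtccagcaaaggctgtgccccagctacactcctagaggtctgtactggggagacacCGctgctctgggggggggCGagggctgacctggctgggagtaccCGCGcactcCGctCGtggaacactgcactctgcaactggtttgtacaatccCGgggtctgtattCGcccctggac
Tet2: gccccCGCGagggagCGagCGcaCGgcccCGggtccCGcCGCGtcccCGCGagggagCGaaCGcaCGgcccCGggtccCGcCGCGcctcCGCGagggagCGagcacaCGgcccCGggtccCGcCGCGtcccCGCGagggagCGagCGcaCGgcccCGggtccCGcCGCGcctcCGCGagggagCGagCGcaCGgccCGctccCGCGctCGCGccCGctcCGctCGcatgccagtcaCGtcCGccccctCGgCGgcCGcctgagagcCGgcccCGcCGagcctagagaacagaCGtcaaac
The Tet2 window holds 57 CpGs, a number that 0.152% of the 32851 mouse promoter windows reach, and its most frequent stretch of 20 bases occurs 4 times in it. The Dnmt3a window holds 47 CpGs, which 1.44% of windows reach (46 and 18 in its other windows), and the Dnmt3b window 30, which 11.7% reach. The Tet1 window holds 17 CpGs and the Dnmt3l window 6 (4 and 3 in its other windows), where the median over all windows is 7. Of the letters searched on both strands, the GC box GGGCGG stands in all 5 of the windows shown, though not in the Dnmt3l window with 3 CpGs, and in 35.7% of all windows, and the TATA box TATAAA stands in none of the 5 and in 13.6% of all windows. These counts describe the reference sequence only.

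Between the cell types, the de novo genes showed by far the widest differences. Because the tables of ESCs and EpiLCs were adjusted separately, levels across them are given as a description with no test. In a bulk library, fewer cells that express a gene and less RNA per cell cannot be told apart. Dnmt3a (ENSMUSG00000020661, chromosome 12 from 3806007 to 3914443 of GRCm38, plus strand) stood at 71.2, 67.2 and 76.2 CPM in the 3 vehicle ESC libraries and at 676, 741 and 673 CPM in the 3 vehicle EpiLC libraries, 9.74-fold higher in EpiLCs by the group means. Dnmt3b (ENSMUSG00000027478, chromosome 2 from 153649450 to 153687730, plus strand) stood at 72.9, 79.3 and 79.7 CPM in vehicle ESCs and at 981, 1067 and 768 CPM in vehicle EpiLCs, 12.1-fold higher. Dnmt3l (ENSMUSG00000000730, chromosome 10 from 78041947 to 78063622, plus strand) stood at 9.23, 12.2 and 11.1 CPM in vehicle ESCs and at 176, 206 and 176 CPM in vehicle EpiLCs, 17.1-fold higher. For these 3 genes, every EpiLC library of either exposure lay above every ESC library.

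The maintenance genes and 2 of the 3 TET genes went the other way. Dnmt1 (ENSMUSG00000004099, chromosome 9 from 20907209 to 20959888, minus strand) had 552, 521 and 542 CPM in vehicle ESCs and 331, 411 and 316 CPM in vehicle EpiLCs, 1.53-fold higher in ESCs. Uhrf1 (ENSMUSG00000001228, chromosome 17 from 56303321 to 56323486, plus strand) had 813, 751 and 760 CPM in vehicle ESCs and 494, 568 and 473 CPM in vehicle EpiLCs, 1.51-fold higher in ESCs. The copying enzyme and its recruiter thus stood lower in EpiLCs by nearly the same factor. Tet1 (ENSMUSG00000047146, chromosome 10 from 62804570 to 62908996, minus strand) had 487, 441 and 403 CPM in vehicle ESCs and 259, 320 and 277 CPM in vehicle EpiLCs, 1.56-fold higher in ESCs. Tet2 (ENSMUSG00000040943, chromosome 3 from 133463679 to 133545139, minus strand) had 169, 179 and 162 CPM in vehicle ESCs and 37.6, 39.7 and 33.9 CPM in vehicle EpiLCs, 4.59-fold higher in ESCs. For Dnmt1, Uhrf1, Tet1 and Tet2, every ESC library of either exposure lay above every EpiLC library.

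Tet3 and Tdg overlapped between the cell types. Tet3 (ENSMUSG00000034832, chromosome 6 from 83362373 to 83459084, minus strand), the TET gene best known from the oocyte and zygote, had 17.1, 20.5 and 16.7 CPM in vehicle ESCs and 17.1, 22.1 and 18.6 CPM in vehicle EpiLCs. Tdg (ENSMUSG00000034674, chromosome 10 from 82629828 to 82650799, plus strand) had 70.8, 69.0 and 72.3 CPM in vehicle ESCs and 85.2, 102 and 63.6 CPM in vehicle EpiLCs. The value of Tdg needs care for another reason. Of its 75-base stretches of transcript, 33.8% also occur in Tdg-ps, Gm9855 or Gm5597, and the authors kept uniquely mapped reads only. The reads were longer than 75 bases, so this is not the share of reads lost. Dnmt3b shared 6.17% of its stretches with Dnmt3c, a gene listed in neither table, and Uhrf1 shared 9.05% with Gm5648.

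**Figure D1:**
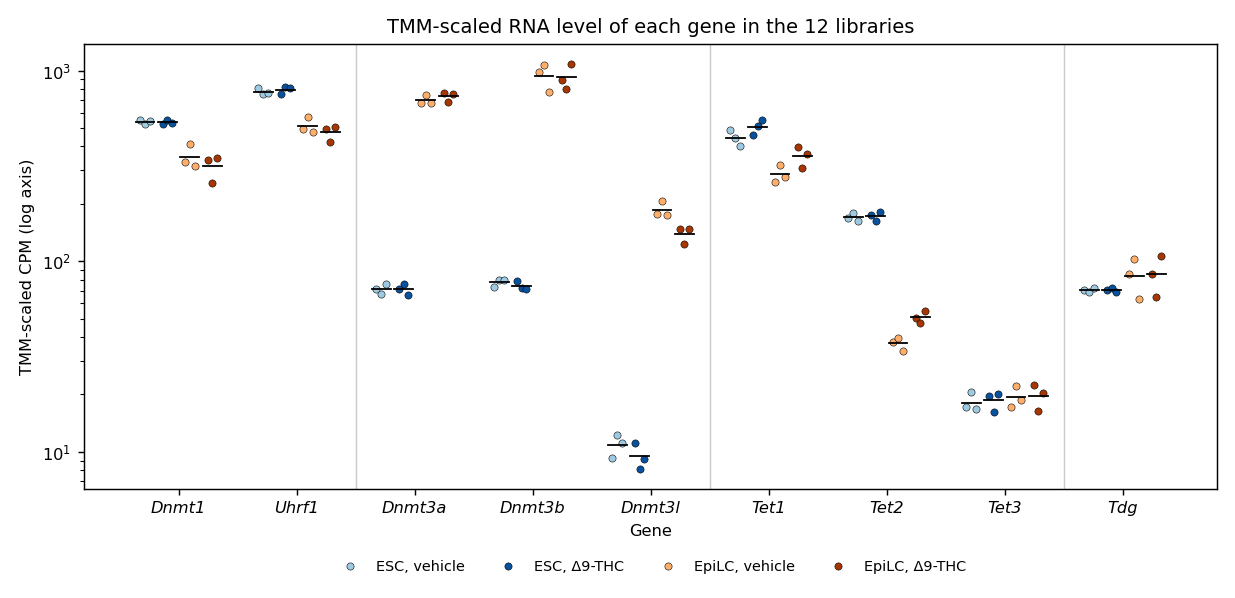
TMM-scaled CPM (log axis) of the 9 genes; each point is a library, each bar the mean of 3 libraries, and the colours give cell type and exposure. Dnmt3a, Dnmt3b and Dnmt3l are at least 9.74-fold higher in vehicle EpiLCs than in vehicle ESCs, Tet2 is 4.59-fold lower, and Tet3 and Tdg overlap between cell types.

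Levels can be set against each other within a group once divided by length. In CPM per kb of exon (the union of all annotated exons of a gene), vehicle ESCs had Uhrf1 first at 182 ± 7.79 (SD, n = 3), Dnmt1 at 73.0 ± 2.08 and Tet1 at 28.7 ± 2.74. Dnmt3b at 15.1 ± 0.741, Tdg at 13.2 ± 0.304 and Tet2 at 10.1 ± 0.501 followed, with no overlap between neighbours in this order. Dnmt3a at 4.30 ± 0.271 and Dnmt3l at 3.64 ± 0.509 overlapped, and Tet3 was lowest at 1.08 ± 0.124. The same order held in ESCs with Δ9-THC. In vehicle EpiLCs the order opened with Dnmt3b at 184 ± 30.1, ahead of Uhrf1 at 120 ± 11.7 and Dnmt3l at 62.3 ± 5.79. Dnmt1 at 47.8 ± 6.94 and Dnmt3a at 41.9 ± 2.31 overlapped, as did Tet1 at 18.5 ± 2.03 and Tdg at 15.6 ± 3.61. Tet2 at 2.20 ± 0.174 and Tet3 at 1.15 ± 0.152 closed it. In EpiLCs with Δ9-THC, Dnmt3l at 46.7 ± 4.59, Dnmt3a at 44.1 ± 2.39 and Dnmt1 at 42.6 ± 6.79 came within each other's range. Dnmt3a has 16642 bases of annotated exon against 5106 for Dnmt3b, so a level per kb of a gene expressed mainly as its shorter transcripts comes out low on this scale. The place of Tdg in these orders needs care too, as it shares stretches of transcript with other genes.

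The first exposure comparison asked whether Δ9-THC changed these genes in ESCs. It did not pass the test for any of them: 0 of 9 members were called by edgeR (quasi-likelihood test, Benjamini-Hochberg adjusted p at most 0.05 over all genes), where 6.91% of the 13104 genes tested were. At an unadjusted p under 0.05, edgeR had 0 of 9 members against 28.7% of all genes, and DESeq2 called 0 of 9 against 5.79% of all genes. For 0 of 9 members did the exposed libraries lie clear of the vehicle libraries, against 33% of all genes. Tet1 came closest. It had 487, 441 and 403 CPM with the vehicle and 459, 510 and 550 CPM with Δ9-THC, so 2 of the 3 exposed libraries lay above all vehicle libraries. Its log2(fold-change) was 0.21 (SE 0.089, 95% confidence interval -0.0042 to 0.42, edgeR adjusted p = 0.181), with adjusted values of 0.080 to 0.920 over the 14 alternatives.

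The other members of the ESC comparison differed less. Dnmt3l, the gene with the fewest counts, had 9.23, 12.2 and 11.1 CPM with the vehicle and 11.2, 8.16 and 9.13 CPM with Δ9-THC. The groups overlapped, and the interval of its log2(fold-change) ran from -0.53 to 0.17 around -0.18. The estimate was -0.075 without the second exposed library and -0.31 without the first. The remaining log2(fold-change) values lay between -0.042 for Dnmt3b and 0.051 for Tet3. The interval ran from -0.075 to 0.087 for Dnmt1, from -0.060 to 0.15 for Uhrf1, from -0.14 to 0.16 for Dnmt3a and from -0.087 to 0.16 for Tet2, on the log2 scale. With the offsets described further on, which take out trends with GC content and exon length, Dnmt1 had 0.082 (interval 0.012 to 0.15, edgeR adjusted p = 0.217) and Uhrf1 0.11 (interval -0.0023 to 0.22). Tdg was the most even member, at 69.0 to 72.4 CPM over all 6 ESC libraries.

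In EpiLCs, induced from the ESCs, the members with the widest differences were Tet2 and Tet1, which had higher means with Δ9-THC, and Dnmt3l, which had a lower mean. None was called by the main test, which called 0 of 9 members and 0% of the 13717 genes. At an unadjusted p under 0.05, edgeR had 3 of 9 members (Dnmt3l, Tet1 and Tet2), against 15.1% of all genes. DESeq2 called 1 of 9 members, Tet2, against 0.634% of all genes. The edgeR fit of all 12 libraries, which estimates the spread from both cell types, also called Tet2 alone, where it called 3.31% of 12410 genes. Replicates lay further apart in EpiLCs. Between 2 libraries of a group, the chi-square of the counts per gene was 42.3 to 102 in EpiLCs and 4.77 to 7.82 in ESCs. The SE for Tet2 was 0.075 in the pooled fit and 0.086 in EpiLCs alone, so the pooled fit is not a separate check.

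Tet2 had 37.6, 39.7 and 33.9 CPM with the vehicle and 50.6, 47.6 and 54.7 CPM with Δ9-THC. All 3 exposed libraries lay above all 3 vehicle libraries, an arrangement that 11.2% of all genes shared. The log2(fold-change) was 0.46 (SE 0.086, 95% confidence interval 0.25 to 0.67, edgeR adjusted p = 0.144). The adjusted p was 0.0178 with DESeq2 and 0.0161 with edgeR over all 12 libraries, and it ranged from 0.0161 to 1.00 over the 14 alternatives. With the replicate number as a block, the estimate was 0.46 (SE 0.15) with an adjusted p of 0.999. Even at the higher level, the exposed EpiLCs held less Tet2 RNA than any ESC library, the lowest of which had 162 CPM.

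Dnmt3l showed the opposite arrangement, with 176, 206 and 176 CPM with the vehicle and 148, 124 and 147 CPM with Δ9-THC. The exposed libraries all lay below the vehicle libraries, which 10.6% of all genes did. Its log2(fold-change) was -0.41 (SE 0.10, 95% confidence interval -0.66 to -0.17, edgeR adjusted p = 0.187), with adjusted values of 0.056 to 1.00 over the alternatives. Counting either direction, the exposures did not overlap for 2 of 9 members, against 21.8% of all genes. Tet1 had 259, 320 and 277 CPM with the vehicle and 395, 308 and 364 CPM with Δ9-THC, where the second exposed library fell inside the range of the vehicle. Its log2(fold-change) was 0.32 (SE 0.12, 95% confidence interval 0.027 to 0.61, edgeR adjusted p = 0.298).

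The genes that place and copy the mark stayed within their spread in EpiLCs. Dnmt3b, the most abundant member per kb there, had 981, 1067 and 768 CPM with the vehicle and 890, 795 and 1079 CPM with Δ9-THC, with a log2(fold-change) of -0.025 (95% confidence interval -0.41 to 0.36). Dnmt3a had 676, 741 and 673 CPM with the vehicle and 760, 687 and 752 CPM with Δ9-THC, with a log2(fold-change) of 0.073 (interval -0.11 to 0.26). The Dnmt1 values were 331, 411 and 316 CPM with the vehicle and 339, 257 and 347 CPM with Δ9-THC, with a log2(fold-change) of -0.17 (interval -0.53 to 0.20) that ran from -0.25 to -0.040 when a library was left out, lowest in size without the second vehicle library. Each of these groups overlapped. Tdg shows most plainly how same-numbered libraries were tied, with 85.2, 102 and 63.6 CPM with the vehicle and 85.2, 64.7 and 106 CPM with Δ9-THC. Its 2 means differed by a log2(fold-change) of 0.027, with an interval of -0.51 to 0.57. Uhrf1 and Tet3 had log2(fold-change) values of -0.11 (interval -0.37 to 0.15) and 0.027 (interval -0.32 to 0.37). The value of Uhrf1 was -0.026 without the second vehicle library.

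**Figure D2:**
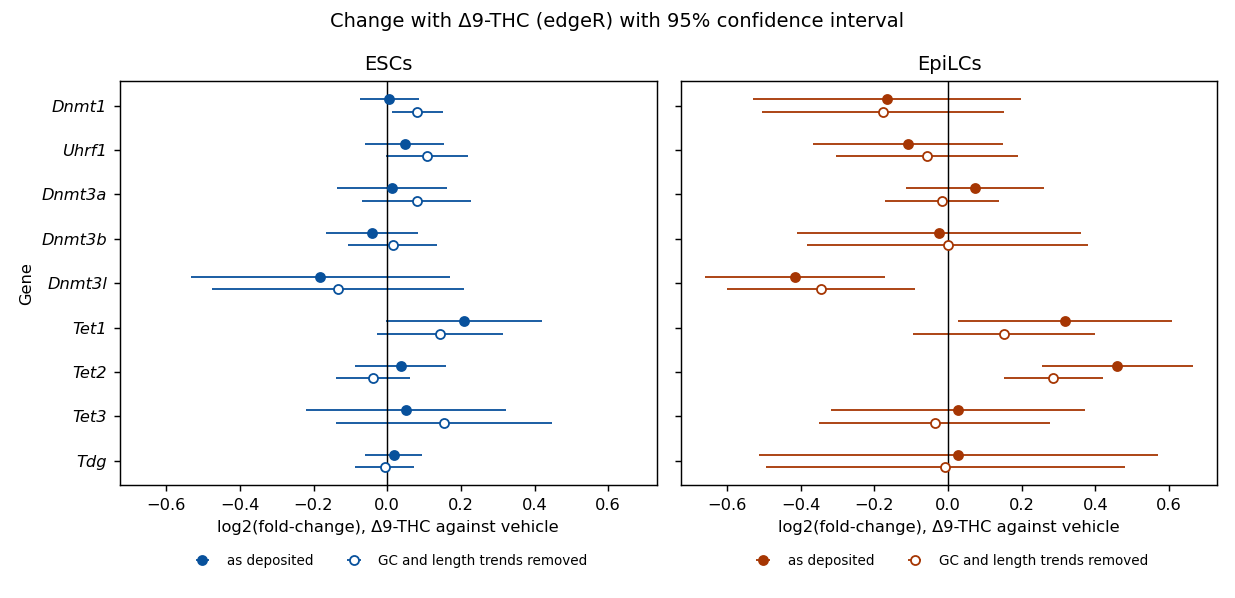
log2(fold-change) of Δ9-THC against vehicle for the 9 genes in ESCs and EpiLCs, with 95% confidence intervals from edgeR on the deposited counts (filled) and after removal of each library's trend with GC content and exon length (open). In EpiLCs the deposited counts gave 0.46 for Tet2, 0.32 for Tet1 and -0.41 for Dnmt3l, and removing the trends gave 0.29, 0.15 and -0.34.

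The differences moved with base composition. Over 13083 genes of ESCs the log2(fold-change) fell as the GC content of the exons rose (Spearman's rho -0.55 across genes), and over 13696 genes of EpiLCs rho was -0.31. Genes are not independent replicates, and no p is given. In EpiLCs the median log2(fold-change) was 0.088 for genes under 45% GC and -0.076 for genes at 55% or more. Tet2 and Tet1 are AT-rich members at 44.1% and 44.7% GC, while Dnmt3l stands at 53.1%. With offsets that take out, library by library, any trend with GC content and exon length, Tet2 in EpiLCs had a log2(fold-change) of 0.29 (SE 0.056, edgeR adjusted p = 0.208), Tet1 had 0.15 (SE 0.10, edgeR adjusted p = 0.578) and Dnmt3l had -0.34 (SE 0.11, edgeR adjusted p = 0.275). The estimates of Tet1 and Tet2 shrank by more than 1.5 times and that of Dnmt3l by less. In ESCs, Tet1 went from 0.21 to 0.14 (SE 0.071).

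**Figure D3:**
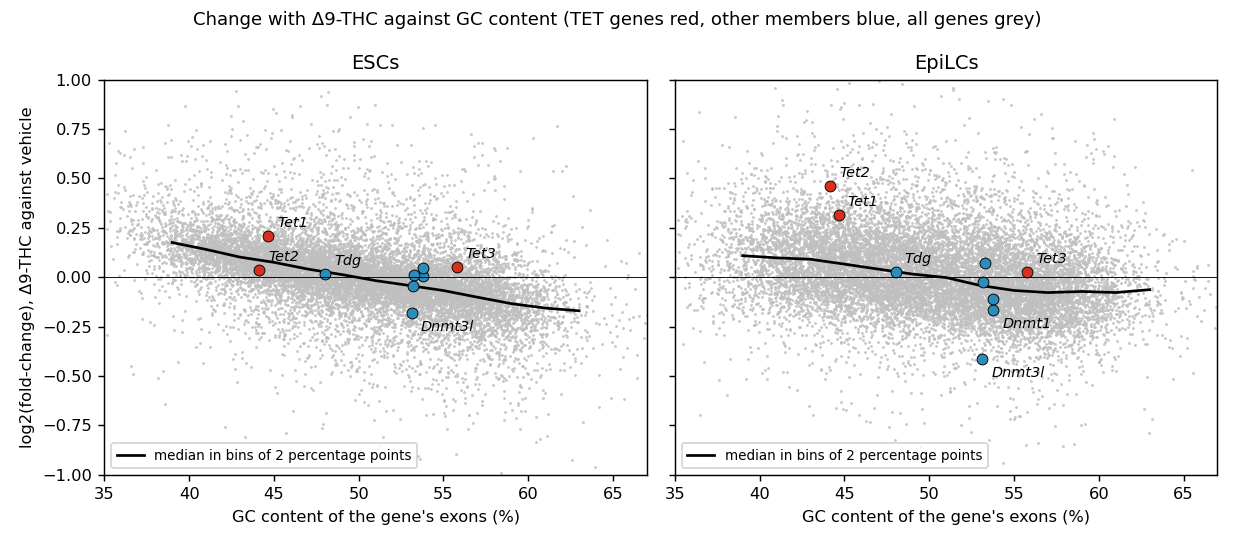
log2(fold-change) of Δ9-THC against vehicle (vertical axis, limited to -1 to 1) against the GC content of a gene's exons in percent, for all genes (grey) and the 9 members (TET genes red, others blue); the black line is the median in bins of GC content. The line falls with GC content in both cell types, and Tet1 and Tet2 at 44.7% and 44.1% GC lie on its higher side.

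An interaction term over the 12 libraries asked whether ESCs and EpiLCs responded differently. Exposed EpiLCs derive from exposed ESCs in the study's continuous scheme. The term therefore cannot tell cell type from length or history of exposure. Its model also takes a common spread for both cell types, though replicates lay further apart in EpiLCs. EdgeR called 0 of 9 members, against 0.0322% of the 12410 genes in both tables, and at an unadjusted p under 0.05 it had 1 of 9 members, against 13.7%. That member was Tet2, whose log2(fold-change) was higher in EpiLCs than in ESCs by 0.44 (SE 0.10, 95% confidence interval 0.21 to 0.66, edgeR adjusted p = 0.102). DESeq2 called Tet2 with an adjusted p of 0.0171, where it called 1.07% of genes, and the adjusted values of all 16 alternatives ran from 0.0171 to 0.999. For Dnmt3l the difference was -0.22 (interval -0.61 to 0.17) and for Tet1 0.13 (interval -0.21 to 0.47), so neither gene was shown to respond differently in the 2 cell types. Leaving out a library moved the first between -0.32 and -0.086 and the second between 0.045 and 0.22, and the offsets gave 0.025 for Tet1. The values nearest 0 came without the first exposed ESC library for Dnmt3l and without the first exposed EpiLC library for Tet1.

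Ratios within a library do not depend on its scaling, so the make-up of the TET RNA was also compared, per exonic length. Tet1 made up 71.9% ± 1.89 (SD, n = 3) of it in vehicle ESCs and 84.6% ± 0.767 in vehicle EpiLCs. Tet2 made up 25.3% ± 1.61 in vehicle ESCs and 10.1% ± 0.892 in vehicle EpiLCs, and Tet3 2.73% ± 0.313 and 5.28% ± 0.149. With Δ9-THC in EpiLCs the share of Tet3 was 4.47%, 4.14% and 4.34%, below the 5.13%, 5.43% and 5.30% of the vehicle libraries (two-sided exact permutation p = 0.1, the smallest that 3 against 3 libraries allow). Tet3 itself had 19.3 ± 2.54 CPM in vehicle EpiLCs and 19.7 ± 3.00 CPM in exposed EpiLCs, with overlap. The means of Tet1 and Tet2 were higher with Δ9-THC. The share of Tet2 there was 10.05%, 11.9% and 11.6% against 11.1%, 9.66% and 9.54%, and the groups overlapped (exact p = 0.2).

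The balance of erasers to writers, taken as log2 of the TET sum over the sum of Dnmt1, Dnmt3a and Dnmt3b per exonic length, was -1.21 ± 0.119 in vehicle ESCs and -3.64 ± 0.163 in vehicle EpiLCs. With Δ9-THC it stood at -1.13, -1.10 and -0.92 in ESCs against -1.13, -1.16 and -1.35 with the vehicle, where the highest vehicle value and the lowest exposed value agree to 2 decimals. In EpiLCs it stood at -3.15, -3.29 and -3.44 with Δ9-THC against -3.80, -3.67 and -3.47. The exposed libraries lay above the vehicle libraries in both cell types (two-sided exact permutation p = 0.1 each), by 0.16 in ESCs and 0.35 in EpiLCs. The ESC difference was 0.096 without the third vehicle library and 0.10 without the third exposed one. Per exonic length, Dnmt3b made up 77.9% ± 1.29 of the Dnmt3a and Dnmt3b RNA in vehicle ESCs and 81.3% ± 2.13 in vehicle EpiLCs, with exact p values of 0.6 and 0.8 for the exposures. That share rests on exon lengths of 16642 bases for Dnmt3a and 5106 for Dnmt3b, while their longest coding lengths are 2724 and 2580 bases. With no length scaling, mean CPM in vehicle ESCs was 71.5 for Dnmt3a and 77.3 for Dnmt3b. In vehicle EpiLCs it was 697 and 938. With 3 against 3 libraries none of the 10 exact tests of these ratios could reach the threshold (Benjamini-Hochberg adjusted exact values 0.333 to 1), so they show only whether the groups overlap. Tet1 and Tet2 have the lowest GC content of the genes in these ratios, and Tet3 has the highest (55.8%). The GC trend therefore moves with the balance and with the TET shares too, and its part was not tested.

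**Figure D4:**
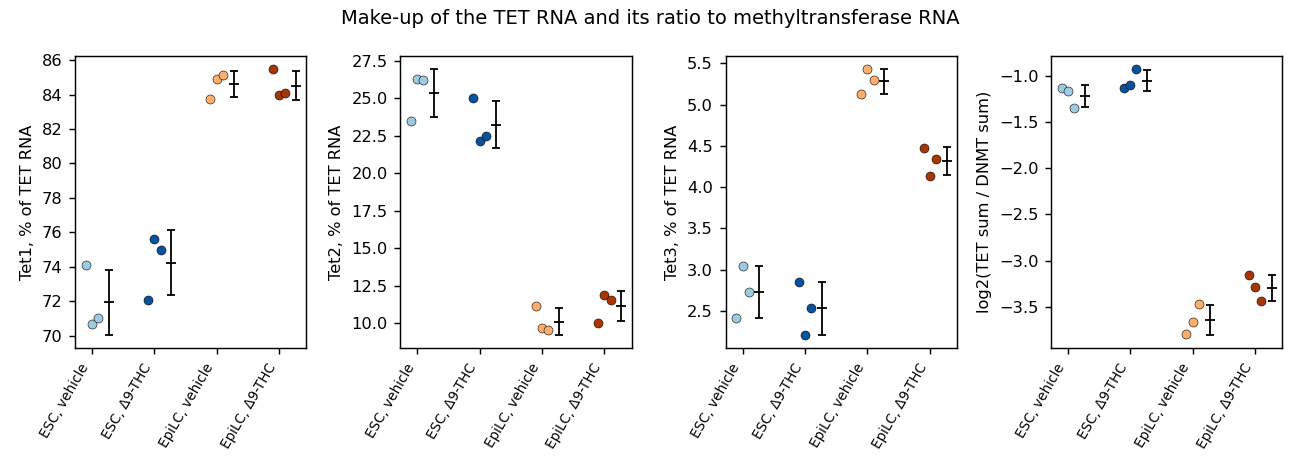
Share of Tet1, Tet2 and Tet3 in the TET RNA (percent, per exonic length) and log2 of the TET sum over the sum of Dnmt1, Dnmt3a and Dnmt3b; points are libraries and bars the mean and SD of 3 libraries. Vehicle EpiLCs have a Tet3 share of 5.28% against 4.32% with Δ9-THC, without overlap, while the mean Tet3 CPM is 19.3 and 19.7, with overlap. The log2 balance lies near -1 in ESCs and between -3.80 and -3.15 in EpiLCs.

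The other genes that bear on DNA methylation were read from 6 lists. In ESCs 4 of their 63 measured genes (6.35%) passed the test, 2 higher and 2 lower, a share near the 6.91% of all genes. Hells, a chromatin remodeller needed for methylation of repeats, rose from 435 ± 19.0 to 496 ± 20.9 CPM (SD, n = 3; log2(fold-change) 0.20, edgeR adjusted p = 0.0494). Mat2a, which makes the methyl donor S-adenosylmethionine, rose from 191 ± 8.86 to 231 ± 10.3 CPM (log2(fold-change) 0.29, edgeR adjusted p = 0.0304). Cxxc1, a protein that binds unmethylated CpGs, fell from 40.3 ± 1.68 to 33.9 ± 1.47 CPM (log2(fold-change) -0.23, edgeR adjusted p = 0.0435), and Neil1, a DNA glycosylase, fell from 9.94 ± 0.116 to 8.14 ± 0.105 CPM (log2(fold-change) -0.27, edgeR adjusted p = 0.0344). DESeq2 kept 3 of the 4 calls (Cxxc1, Hells and Mat2a), and edgeR with RLE scaling kept 3 (Cxxc1, Mat2a and Neil1). None of the 4 stayed past the threshold with the replicate block (lowest adjusted p = 0.414), with the GC and length offsets (0.0994), in the edgeR fit of 12 libraries (0.0835) or when any library was left out (0.0721). Leaving out a library kept the log2(fold-change) of Hells at 0.18 to 0.24, of Mat2a at 0.25 to 0.32, of Cxxc1 at -0.26 to -0.20 and of Neil1 at -0.28 to -0.26, and the block left each at its first value. With the offsets it was 0.049 for Hells (39.9% GC), 0.24 for Mat2a (46.2%), -0.11 for Cxxc1 (57.6%) and -0.18 for Neil1 (56.7%).

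By list, the medians in ESCs can be set beside the 0.0041 of all genes. The median log2(fold-change) was 0.048 for 8 other maintenance factors (1 called higher, 0 lower) and -0.00089 for 10 genes of de novo targeting and repression (0 higher, 1 lower). With the GC and length offsets, that of the maintenance factors was 0.0084. The median was 0.012 for 8 genes listed as methyl-CpG readers (0 called). It was 0.025 for 10 TET partners and suppliers of cofactor or methyl donor (1 higher, 0 lower) and -0.049 for 15 genes of base excision repair and deamination (0 higher, 1 lower). That list holds Gadd45gip1, which despite its name encodes a mitochondrial ribosomal protein. The median was 0.12 for 12 germline genes silenced by promoter methylation, of which edgeR called 0 and DESeq2 called 2 (5.79% of all genes), while 9 had a higher mean and 3 a lower one, against 6697 of 13104 genes higher. With the GC and length offsets the median of these 12 genes was 0.038, with 7 higher and 5 lower. Dazl, a germ-cell RNA-binding protein, had the smallest p of these, at 40.5 ± 3.94 CPM in vehicle libraries and 50.5 ± 4.68 CPM in exposed ones, without overlap (log2(fold-change) 0.33, edgeR adjusted p = 0.0720).

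In EpiLCs none of the lists held a called gene with edgeR or with DESeq2, beside a median of 0.0030 over all genes. The germline list had the highest median log2(fold-change), 0.18, with a higher mean in 13 of 13 measured genes, against 6953 of 13717 of all genes. The exposures did not overlap for 5 of the 13, all higher, an arrangement of 11.2% of all genes. Of the marker sets, those of naive, germ-layer and germ cells also leaned higher. The others did not: 1 fibroblast marker was higher and 3 lower (median -0.32). Core pluripotency genes were 2 higher and 2 lower, and formative genes 3 higher and 4 lower. The 8 naive genes had a median of 0.12 with 6 higher and 2 lower, and summed to 139 to 162 CPM with the vehicle and 148 to 177 with Δ9-THC. Tdh, the naive gene of smallest p, was lower without overlap (log2(fold-change) -0.23, edgeR adjusted p = 0.227). The 4 measured germ-cell markers of 5, 2 of which (Dazl and Ddx4) are also in the germline list, were all higher with a median of 0.12, and summed to 71.5 to 81.7 and 79.7 to 93.0 CPM. No naive or germ-cell marker was called, and their part in the germline values was not tested. Ddx4, the germ-cell RNA helicase Vasa, had 28.0 ± 3.15 CPM in vehicle libraries and 36.4 ± 4.03 CPM in exposed ones, without overlap (log2(fold-change) 0.38, SE 0.12, edgeR adjusted p = 0.227). With the GC and length offsets the list's median was 0.19, with 11 of 13 genes higher. As its median GC content is 43.7%, the trend moves with this list, and its part in the direction of single genes was not tested further.

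Among the other lists in EpiLCs, the median was 0.15 for the genes of de novo targeting and repression and 0.029 with the offsets. Prdm14, a repressor of Dnmt3b, was the gene with the smallest p there, at 0.931 ± 0.159 CPM in vehicle libraries and 1.41 ± 0.169 CPM in exposed ones (log2(fold-change) 0.60, edgeR adjusted p = 0.216). Both of these levels are low, where vehicle ESCs had 80.3 ± 2.69 CPM of Prdm14. The list of methyl-CpG readers had a median of 0.092, and 0.038 with the offsets. Mbd3, a subunit of the NuRD complex, was counted there by its family and not by a measured binding. It had 170, 177 and 172 CPM with the vehicle and 147, 141 and 143 CPM with Δ9-THC (log2(fold-change) -0.26, edgeR adjusted p = 0.155). The median was 0.040 for the maintenance factors, -0.036 for the TET partners and suppliers and -0.073 for repair and deamination. With the offsets the values were -0.040, -0.080 and -0.027 in the same order, so that of the maintenance factors turned. Within these lists, Dppa3 (Stella), which keeps Uhrf1 off chromatin and whose expression the ECFP reporter marks, had a log2(fold-change) of -0.24 (edgeR adjusted p = 0.323). Idh2, a mitochondrial source of 2-oxoglutarate, had -0.16 (edgeR adjusted p = 0.236), and the repair scaffold Xrcc1 had -0.28 (edgeR adjusted p = 0.311).

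**Figure D5:**
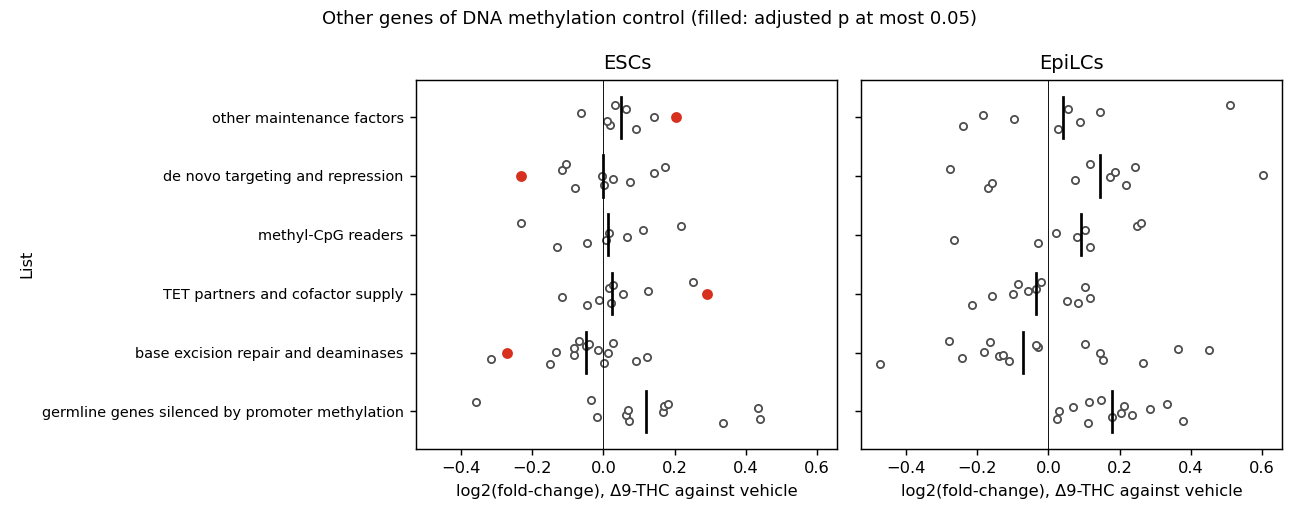
log2(fold-change) of Δ9-THC against vehicle for each measured gene of the 6 lists (points), with the list's median (black bar) and genes of adjusted p at most 0.05 filled in red, in ESCs and EpiLCs. The 4 filled genes are all in ESCs, and all 13 points of the germline list lie right of 0 in EpiLCs.

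Across the 12 libraries, the genes whose centred log2 CPM lay closest to a member differed by role. Closeness is the root mean square (RMS) difference over the 12 libraries. Sec31a lay closest to Dnmt1 (RMS 0.042), and Uhrf1 was another of its 3 closest genes (RMS 0.059). Mta2, a subunit of the NuRD complex, lay closest to Uhrf1 (RMS 0.046) and Cnot6l, a deadenylase, closest to Tet1 (RMS 0.053). Myrf was closest to Dnmt3a (RMS 0.10) and second to Dnmt3b (RMS 0.18), behind the gap-junction gene Gja1 (RMS 0.12). Flnc was closest to Dnmt3l (RMS 0.15), Lamp2 to Tet2 (RMS 0.11), Itgb1 to Tet3 (RMS 0.066) and Wdr47 to Tdg (RMS 0.085). No other member was among the 3 closest genes of any member. For members that differ widely between cell types this measure is set mainly by that difference.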

How the data were processed

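RNA was measured by poly(A) RNA-seq in 12 libraries of ESCs and EpiLCs, and PGCLC libraries were not analysed here. The authors aligned reads with STAR, kept unique alignments, counted them per gene with HTSeq without strand, removed low genes and adjusted the counts with ComBat-seq. The deposited tables, one per cell type, contain the adjusted counts as unscaled integers; the batches are not given in the sources used here, and the genome is named both as mm10 and as GRCm39. All 12 columns were assigned by their names.

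Exposures were compared within each cell type, over all genes with a total over 10 counts, with edgeR 4.0.16 (TMM, quasi-likelihood test, no covariate) in R 4.3.3 and Benjamini-Hochberg adjustment over all genes. SEs were derived from the F statistic. Levels used 1 TMM scale over the 12410 genes in both tables. Alternatives were RLE, other filters, a replicate block, GC and length offsets (natural splines, 5 degrees of freedom), DESeq2 1.42.0, 1 model of 12 libraries and each library left out. Gene names, lengths and positions came from GENCODE M21 (GRCm38), which held 14390 of the 14411 genes. The 9 members and the lists were chosen with earlier results of these data known. The text names all members, and per list the called genes (at most 2 in each direction) or the gene of smallest p. A gene of these lists is not reported here and was left out of their counts.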

Additional observations from a re-analysis of the deposited data

How the results depend on the processing

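The count of called members was 0 in ESCs under all alternatives run. In EpiLCs it was 1 with DESeq2 and 1 in the edgeR fit of 12 libraries, and in the interaction it was 1 with DESeq2, Tet2 each time. The replicate block, with same-numbered libraries as pairs, called 0 members in each comparison; it left 5 of the 906 genes called in ESCs and 0 in EpiLCs. The deviations of same-numbered libraries ran opposite, so the numbers do tie libraries of the 2 exposures. Whether the numbers were the batches given to ComBat-seq was not tested. Over all genes, ESC calls were 2 with the GC and length offsets, 3 with offsets and block, 31 in the fit of 12 libraries and 0 to 1 when a library was left out; EpiLC calls were 87 with DESeq2 and 411 in the fit of 12 libraries, and interaction calls went from 4 to 20 with the offsets, 133 with DESeq2 and 0 with the block or a library left out.

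Without left-out libraries, 165 of 180 values of members kept their direction. The 15 that turned were small. In the fit of 12 libraries, the log2(fold-change) in ESCs was -0.010 for Dnmt1 and -0.0041 for Dnmt3a. With the offsets, alone and with the block, it was 0.015 and 0.015 for Dnmt3b, -0.038 and -0.038 for Tet2 and -0.0067 and -0.0070 for Tdg in ESCs. In EpiLCs it was -0.016 and -0.016 for Dnmt3a, -0.036 and -0.038 for Tet3 and -0.0076 and -0.011 for Tdg. The interaction of Dnmt3a was -0.086 with the offsets. The cause was not tested.

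Leaving out 1 library at a time gave log2(fold-change) ranges that cross 0 for Dnmt1 (-0.016 to 0.025), Dnmt3a (-0.032 to 0.057) and Tet3 (-0.0094 to 0.15) in ESCs, and for Dnmt3b (-0.16 to 0.078), Tet3 (-0.082 to 0.14) and Tdg (-0.17 to 0.20) in EpiLCs. The interaction ran from -0.095 to 0.13 for Dnmt3b, -0.11 to 0.10 for Tet3 and -0.16 to 0.19 for Tdg. The exposure difference in the Dnmt3b share in ESCs ran from -1.11 to 0.118 percentage points and that in the Tet1 share in EpiLCs from -0.577 to 0.1897. The log2 level of Tet3 in vehicle EpiLCs over vehicle ESCs ran from -0.019 to 0.19, an alternative added after the data were seen. Tet2 in EpiLCs kept 0.40 to 0.51 and Dnmt3l -0.47 to -0.33. The other shares and levels kept their direction per coding length, without length scaling, without TMM and with DESeq2 size factors. ComBat-seq had removed variation before deposit, so the spread seen here is what remained; gene totals do not separate isoforms.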
